A study of Mus musculus with 10 samples.

Results

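Interferon-stimulated genes were followed in spleen T cells and type 2 conventional dendritic cells (cDC2s) of Cd47ΔT and Cd47f/f mice. The set is a given list of 37 genes, named by symbol and not chosen by a threshold on these values. It was, however, chosen with earlier results of these data known. Its shares beside all genes therefore describe the list and are no independent test. All 37 were found among the 45706 genes of the table, and all 37 passed the filter on low values in both cell types. Cd47ΔT mice lack, by the name of the genotype, CD47 in T cells, a surface protein that restrains phagocytes through their receptor SIRPα. Cd47f/f mice, the controls, carry floxed Cd47 alleles. Read the same way, the cDC2s of Cd47ΔT mice were not themselves targeted, and they differ from control cDC2s in the T cells of the mouse they came from. There were 2 Cd47ΔT and 2 Cd47f/f T cell libraries, and 3 Cd47ΔT and 3 Cd47f/f cDC2 libraries. The Cre line that deletes the gene, the deleted exons, the age and sex of the mice, and whether replicates came from separate mice could not be read from the labels. The p-values therefore reflect library-to-library spread, part of which may be technical.

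Type I interferons are secreted antiviral cytokines that signal through the receptor chains IFNAR1 and IFNAR2. The receptor activates the kinases JAK1 and TYK2, which act on STAT2 among others. STAT2 and IRF9 are subunits of the complex ISGF3, which binds a DNA element called the interferon-stimulated response element (ISRE) and switches on a large set of genes. Many of their products detect or destroy viral RNA, block translation or hold virions at the cell surface, and some of them, such as USP18, switch the pathway off again. Resting immune cells keep a low level of these genes under constant weak interferon signalling, which IRF7 and ISGF3 subunits help to sustain.

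Values are TPM, length-corrected transcript abundances that sum to 1000000 per library. The number of reads behind each value is unknown, so no counting error is given. Log2 changes compare Cd47ΔT with Cd47f/f as differences of log2(TPM + 1) ± SE, positive where Cd47ΔT was higher, and a gene was called where the Benjamini-Hochberg adjusted p of limma over all genes tested was under 0.05. This scale understates changes of low genes. The deleted gene itself, Cd47, stood at 40.4 and 51.7 TPM in Cd47ΔT T cells, against 138 and 233 TPM in Cd47f/f T cells (log2 change -1.95 ± 0.26, adjusted p = 0.0112). The deleted exons are unknown, so remaining reads may lie outside them. In cDC2s it stood at 151, 159 and 135 TPM in Cd47ΔT and 140.2, 144 and 162 TPM in Cd47f/f cDC2s (log2 change -0.0022 ± 0.10, adjusted p = 0.995). The cell type labels were checked against defining markers. T cell markers summed to 4360 to 4810 TPM in Cd47ΔT and 4610 to 4690 TPM in Cd47f/f T cell libraries, against 14.9 to 22.8 TPM in cDC2 libraries, where Cd3g was at 0. cDC2 markers summed to 9630 to 9820 TPM in Cd47ΔT and 10200 to 13100 TPM in Cd47f/f cDC2 libraries, with 1 of 10 called, the lectin gene Cd209a, which was lower in Cd47ΔT. Among the cDC2 libraries, Cd47f/f library 3 stood apart, with a Pearson r across genes of 0.929 to 0.937, while no pair among the other 5 was below 0.945.

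The same genotype contrast went in opposite directions in the 2 cell types. In T cells, 9 of 37 interferon-stimulated genes were called higher in Cd47ΔT (24.3%, against 8.50% of the 12453 genes tested) and 0 lower (0.875% of all genes, and 9.37% in either direction). At an unadjusted p under 0.05, 21 were higher and 1 lower in limma (21.6% of all genes in either direction). In cDC2s, 5 of 37 were called lower in Cd47ΔT (13.5%, against 0.381% of the 12058 genes tested) and 0 higher (0.249% of all genes), and at an unadjusted p under 0.05 limma gave 29 lower and 0 higher (13.4% of all genes in either direction). The median log2 fold change of the 37 was 0.50 in T cells, beside 0.10 over all genes tested, and -0.58 in cDC2s, beside -0.0729 over all genes tested. The fold change was above 0 in 31 of 37 genes in T cells (65.4% of all genes) and in 2 of 37 in cDC2s (39.3% of all genes). In T cells 24 of 37 genes were higher in both Cd47ΔT libraries than in both Cd47f/f libraries (37.0% of all genes), 2 were lower without overlap (11.9% of all genes) and 11 overlapped, where 48.9% of all genes did not overlap. In cDC2s 29 of 37 were lower in all 3 Cd47ΔT libraries than in all 3 Cd47f/f libraries (13.5% of all genes), and none was higher without overlap (6.38% of all genes). In bulk samples, fewer cells that express a gene and less RNA per cell cannot be told apart.

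The mean log2(TPM + 1) over the 37 genes gives the same picture library by library. It was 5.10 and 5.05 in Cd47ΔT T cells, against 4.51 and 4.73 in Cd47f/f T cells. In cDC2s it was 4.53, 4.73 and 4.48 in Cd47ΔT, against 5.17, 5.26 and 5.20 in Cd47f/f. The number of genes at 1 TPM or more also separated the genotypes in T cells, at 12446 and 12594 in Cd47ΔT and 11514 and 11848 in Cd47f/f, as did the share of TPM in protein-coding genes, at 86.9% and 86.2% in Cd47ΔT and 84% and 84.6% in Cd47f/f. Their part in the result was not tested beyond the scaling to protein-coding genes. In both cell types the genotypes stayed apart in the mean, and Cd47f/f cDC2 library 3 lay between the other 2 controls. Among T cells, Cd47f/f library 2 lay nearer to the Cd47ΔT libraries than Cd47f/f library 1 did. Under the other scalings of the TPM the median fold change kept its direction, at 0.28 to 0.48 in T cells and -0.52 to -0.49 in cDC2s. In T cells scaling also shifts the median of all genes tested, which was 0.10 as deposited and -0.0812 under quantile scaling, where the median of the 37 was 0.28.

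**Figure D1:**
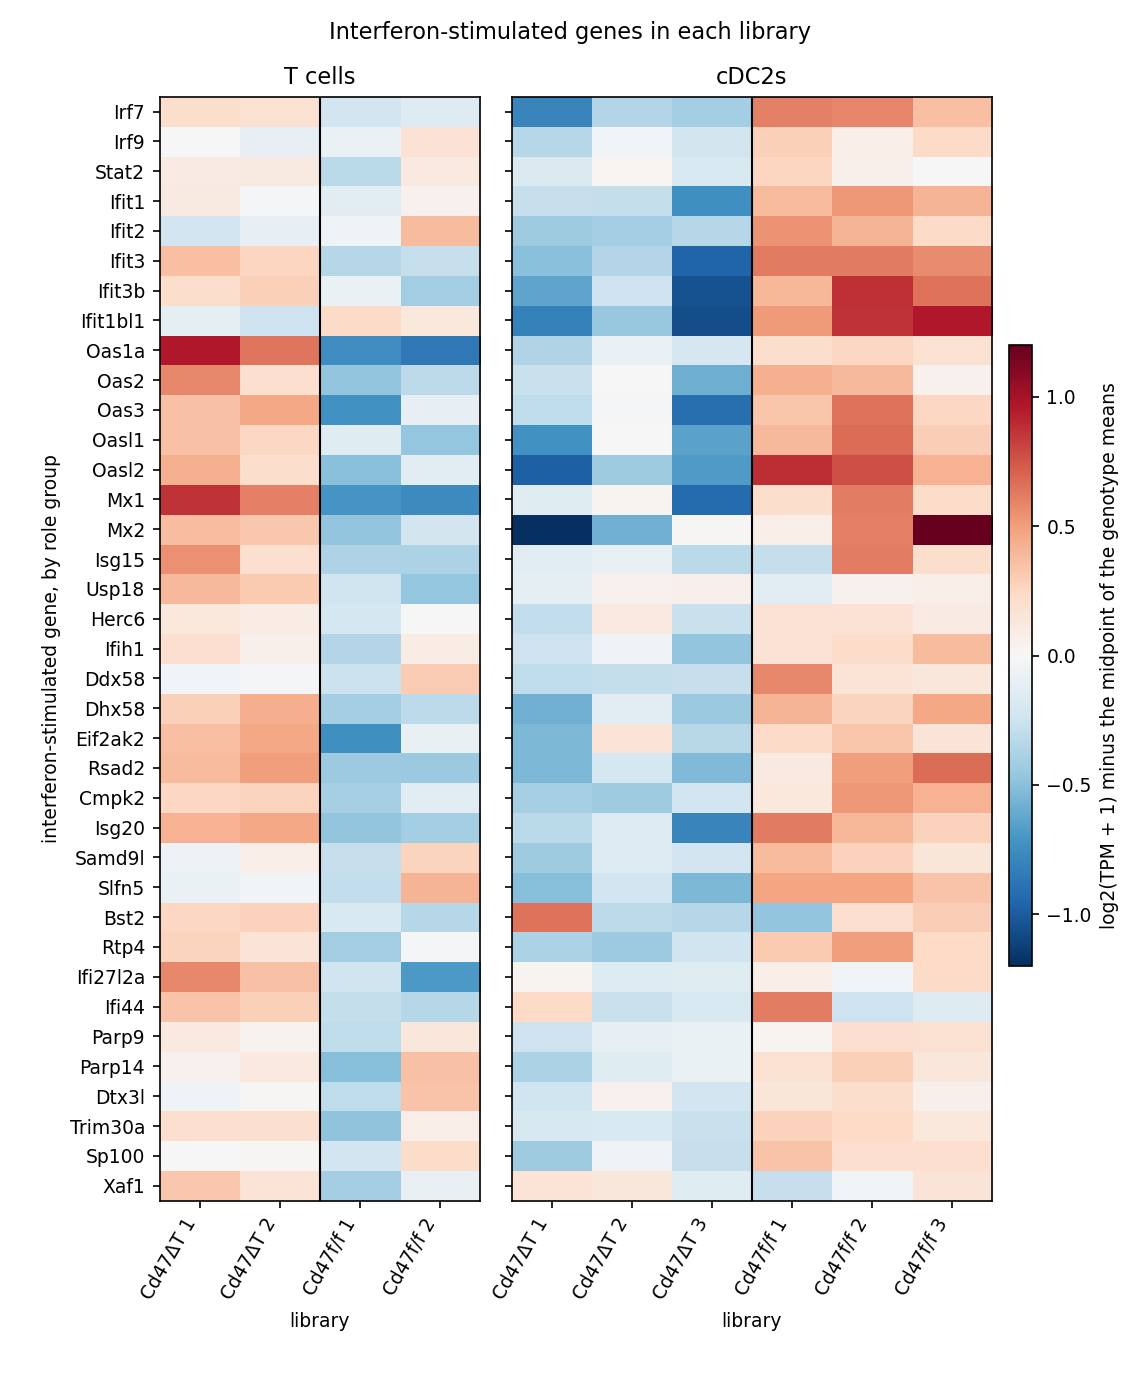
Colour gives log2(TPM + 1) of each of the 37 genes (rows, in role groups) in each library (columns) minus the midpoint of the 2 genotype means of that cell type, with colours capped at the ends of the scale, so red is higher and blue lower within T cells (left) or cDC2s (right). Most rows are red in Cd47ΔT and blue in Cd47f/f T cells, and blue in Cd47ΔT and red in Cd47f/f cDC2s. Bst2, Usp18, Ifi44 and Xaf1 do not show the cDC2 pattern.

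Markers of other cell types moved with the T cell comparison. All 8 macrophage and all 8 monocyte markers, 5 of 5 B cell, 5 of 6 plasma cell, 6 of 8 NK cell and 6 of 7 cDC2 markers that were tested were called higher in Cd47ΔT T cells, as were 4 of 5 cDC1, 3 of 5 erythroid, 2 of 4 neutrophil and 2 of 8 plasmacytoid dendritic cell markers. Of all genes tested in T cells, 8.50% were called higher. The cDC1 genes Clec9a, Cadm1, Batf3 and Wdfy4 were under 1 TPM in both Cd47f/f T cell libraries. They passed the filter only through Cd47ΔT, which fixed their direction in advance, so the cDC1 count is no test. Some genes of the other lists also passed only in this way. The macrophage list summed to 130 and 209 TPM in Cd47ΔT T cell libraries 1 and 2, against 15.5 and 19.7 TPM in Cd47f/f libraries. The cDC2 list summed to 103 and 181 TPM in Cd47ΔT and 15.9 and 20.6 TPM in Cd47f/f T cell libraries, the B cell list to 52.8 and 123 TPM in Cd47ΔT and 14.8 and 16.1 TPM in Cd47f/f. Most of the monocyte sum was Ly6c2, which T cells express too. The neutrophil list summed to 25.2 and 87.3 TPM in Cd47ΔT and 1.75 and 5.16 TPM in Cd47f/f T cells, with Ly6g at 0 in every library. Their part in the T cell result was not tested. Cd47ΔT library 2 held more of the macrophage, cDC2 and B cell markers than Cd47ΔT library 1. The interferon-stimulated genes summed to 2621 TPM in Cd47ΔT library 2 and 2786 TPM in Cd47ΔT library 1. Without Ifi27l2a and Sp100 they summed to 1338 and 1378 TPM. The relation of these sums to the markers was not tested. In cDC2s no tested gene of another cell type's marker list was called, where 0.630% of all genes were in either direction. Few could be tested, with 3 B cell, 2 plasma cell, 1 neutrophil and 0 NK cell genes, so this cannot decide on other cells. At an unadjusted p under 0.05, limma gave 2 macrophage and 1 plasma cell gene lower, and 1 cDC1 and 1 neutrophil gene higher. The monocyte and plasmacytoid dendritic cell lists each had 1 higher and 1 lower. Of the T cell list, Cd5 stood at 11.7 to 21.8 TPM in every cDC2 library and made up most of the sum. The neutrophil list summed to 1.53 to 3.58 TPM in Cd47ΔT and 0 to 1.17 TPM in Cd47f/f cDC2s, and the NK cell list to at most 1.33 TPM, with Ncr1, Gzma, Prf1, S100a8 and S100a9 at 0 in every library. The plasmacytoid dendritic cell list, whose cells express Bst2 and Irf7 strongly, summed to 192 to 215 TPM in Cd47ΔT and 230 to 237 TPM in Cd47f/f cDC2s. Most of that sum was Bcl11a, at 131, 135 and 108 TPM in Cd47ΔT and 166, 167 and 168 TPM in Cd47f/f, while 4 of the 6 tested genes of the list had a log2 change above 0. Its defining gene Siglech stood at 1.31, 1.37 and 1.74 TPM in Cd47ΔT and 0.960, 0.370 and 0.450 TPM in Cd47f/f cDC2s. The plasma cell list summed to 2.77 to 5.45 TPM in Cd47ΔT and 7.69 to 14.4 TPM in Cd47f/f cDC2s. The part of these lists in the cDC2 result was not tested.

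**Figure D2:**
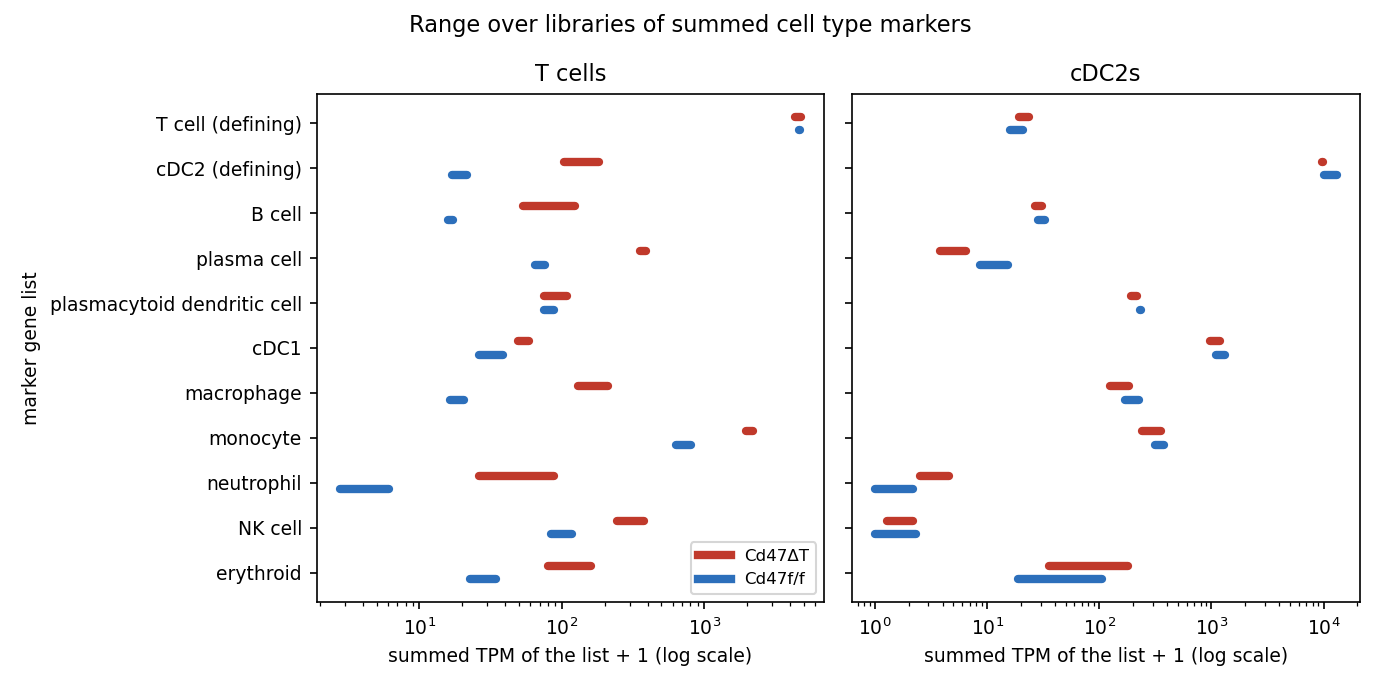
Each bar spans the lowest and highest summed TPM (plus 1, log scale) of a marker list over the libraries of a genotype, in T cells (left) and cDC2s (right), with Cd47ΔT in red above Cd47f/f in blue. In T cells most lists of other cell types lie higher in Cd47ΔT, while in cDC2s the bars of the macrophage, monocyte, B cell and cDC1 lists overlap. Without overlap in cDC2s, the plasmacytoid dendritic cell, plasma cell and cDC2 lists lie lower and the neutrophil list higher in Cd47ΔT.

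Promoter sequences were searched for the ISRE. RefSeq promoter windows (GRCm38.p6, 250 bases before to 50 bases after the start) were matched for 28 of the 37 genes, some with several starts. The ISRE core was searched as GAAANNGAAA on both strands, so that it also reads TTTCNNTTTC. It was present in a window of 15 of 28 genes (53.6%), against 1079 of 27025 genes in the table (3.99%). The ISRE core was found in 7 of 12 genes whose genotype effect differed between the cell types by the test given further on and in 8 of 16 of the others. A match is a description of these letters and not a binding site. The windows below are written from 5′ to 3′ on the gene's strand in lower case, with each ISRE core in capitals. They show the paralogs Ifit3 (chr19:34583279-34583578, plus strand) and Ifit3b (chr19:34607707-34608006, plus strand), whose windows are alike and which were both lower without overlap in Cd47ΔT cDC2s, and Oas1a (chr5:120907476-120907775, minus strand), with the largest T cell increase of the 37 genes. Bst2 (chr8:71537423-71537722, minus strand) carries the core, rose in T cells and overlapped between genotypes in cDC2s. Oasl2 (chr5:114896684-114896983, plus strand), which fell in cDC2s, is shown because these letters are not in its window.
Ifit3: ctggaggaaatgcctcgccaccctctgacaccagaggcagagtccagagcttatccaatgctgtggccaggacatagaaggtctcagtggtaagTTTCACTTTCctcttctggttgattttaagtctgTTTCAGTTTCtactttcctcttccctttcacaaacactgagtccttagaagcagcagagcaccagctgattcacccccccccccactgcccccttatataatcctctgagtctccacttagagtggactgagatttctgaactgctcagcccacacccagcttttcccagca
Ifit3b: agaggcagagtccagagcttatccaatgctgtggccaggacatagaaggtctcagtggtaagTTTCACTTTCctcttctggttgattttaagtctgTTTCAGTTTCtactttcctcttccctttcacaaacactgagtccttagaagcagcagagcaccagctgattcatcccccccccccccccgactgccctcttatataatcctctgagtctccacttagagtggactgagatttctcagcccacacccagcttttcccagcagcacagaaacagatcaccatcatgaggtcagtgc
Oas1a: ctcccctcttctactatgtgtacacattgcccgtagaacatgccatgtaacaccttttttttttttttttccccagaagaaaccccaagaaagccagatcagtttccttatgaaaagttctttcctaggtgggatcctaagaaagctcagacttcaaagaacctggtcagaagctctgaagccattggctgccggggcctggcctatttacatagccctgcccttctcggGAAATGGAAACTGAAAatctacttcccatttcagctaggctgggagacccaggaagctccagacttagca
Bst2: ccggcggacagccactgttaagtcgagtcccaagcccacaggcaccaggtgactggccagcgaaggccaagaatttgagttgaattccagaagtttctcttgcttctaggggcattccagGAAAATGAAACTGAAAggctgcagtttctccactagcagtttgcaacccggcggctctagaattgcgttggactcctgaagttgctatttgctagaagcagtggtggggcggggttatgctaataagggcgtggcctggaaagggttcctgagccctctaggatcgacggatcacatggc
Oasl2: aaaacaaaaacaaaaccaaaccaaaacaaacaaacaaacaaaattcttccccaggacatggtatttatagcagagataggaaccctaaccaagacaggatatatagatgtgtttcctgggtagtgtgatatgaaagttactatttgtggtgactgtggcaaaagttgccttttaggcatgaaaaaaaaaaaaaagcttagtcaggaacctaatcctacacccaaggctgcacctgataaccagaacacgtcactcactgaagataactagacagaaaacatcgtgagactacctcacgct
In the Ifit3 window the cores start at positions -156 and -122 relative to the start, and in the Ifit3b window the same arrangement starts at -188 and -154. In Oas1a overlapping cores start at -20 and -14, and in Bst2 at -130 and -124.

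Among the transcription factors of the pathway, Irf7 changed in cDC2s and the ISGF3 subunits did not pass. Irf7 encodes the factor that amplifies interferon gene transcription and is itself interferon-induced. It stood at 44.1, 60.4 and 58.1 TPM in Cd47ΔT cDC2s, against 118, 116 and 99.6 TPM in Cd47f/f cDC2s (log2 change -1.03 ± 0.14, adjusted p = 0.0293). Every Cd47ΔT cDC2 library lay well below every control. In T cells it stood at 87.6 and 85.7 TPM in Cd47ΔT and 64.3 and 67.6 TPM in Cd47f/f T cells (log2 change 0.39 ± 0.12, adjusted p = 0.105), higher without overlap but not called. Irf9, the DNA-binding subunit of ISGF3, stood at 74.9, 92.6 and 81.2 TPM in Cd47ΔT and 116, 101 and 111 TPM in Cd47f/f cDC2s, lower without overlap (log2 change -0.40 ± 0.11, adjusted p = 0.188). Its T cell values overlapped, at 77.3 and 72.2 TPM in Cd47ΔT and 73.1 and 87.4 TPM in Cd47f/f T cells (log2 change -0.096 ± 0.14, adjusted p = 0.811). Stat2, the subunit that carries the activation domain of ISGF3, overlapped between genotypes in both cell types. It stood at 21.3 and 21.4 TPM in Cd47ΔT and 15.7 and 21.7 TPM in Cd47f/f T cells (log2 change 0.20 ± 0.20, adjusted p = 0.691) and at 43.4, 49.8 and 43.1 TPM in Cd47ΔT and 58.7, 51.2 and 49.2 TPM in Cd47f/f cDC2s (log2 change -0.22 ± 0.12, adjusted p = 0.498). The Irf7 locus overlaps Phrf1 on the opposite strand and Irf9 overlaps Rnf31 on the same strand, so without a stated strand setting reads in the overlaps are uncertain.

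The IFIT genes encode tetratricopeptide proteins that bind foreign RNA and stop its translation. All 5 were lower without overlap in Cd47ΔT cDC2s (13.5% of all genes). Ifit3 had 43.1, 48.1 and 31.2 TPM in Cd47ΔT cDC2s, against 95.7, 95.2 and 91.7 TPM in Cd47f/f cDC2s (log2 change -1.21 ± 0.16, adjusted p = 0.0266). Ifit1bl1, a relative of Ifit1 in the same gene cluster on chromosome 19, had 8.76, 11.4 and 7.15 TPM in Cd47ΔT and 23.4, 30.1 and 32.2 TPM in Cd47f/f cDC2s (log2 change -1.56 ± 0.21, adjusted p = 0.0277). These were the called members of the family, and the controls held more than 23 TPM of each in every library. Ifit3b, a near-identical copy of Ifit3 with 98% identity over 1697 aligned transcript bases, had 11.5, 15.2 and 8.36 TPM in Cd47ΔT and 24.5, 34.5 and 29.5 TPM in Cd47f/f cDC2s (log2 change -1.29 ± 0.23, adjusted p = 0.0659). The split of reads between the copies is uncertain. Ifit1 had 12.9, 12.8 and 9.12 TPM in Cd47ΔT and 21, 23.2 and 21.5 TPM in Cd47f/f cDC2s (log2 change -0.87 ± 0.18, adjusted p = 0.0888), and Ifit2 had 19.6, 19.9 and 20.9 TPM in Cd47ΔT and 39.4, 35.9 and 31.7 TPM in Cd47f/f cDC2s (log2 change -0.79 ± 0.13, adjusted p = 0.0548). In T cells the family did not move as 1 group. Ifit3 was called higher, at 46.7 and 43.5 TPM in Cd47ΔT T cells, against 28.4 and 29.8 TPM in Cd47f/f T cells (log2 change 0.62 ± 0.14, adjusted p = 0.045), and Ifit3b was higher without overlap at 7.49 and 7.97 TPM in Cd47ΔT and 5.93 and 4.49 TPM in Cd47f/f T cells (log2 change 0.50 ± 0.22, adjusted p = 0.259). Ifit1 overlapped at 22.7 and 20.8 TPM in Cd47ΔT and 19 and 21.8 TPM in Cd47f/f T cells (log2 change 0.0874 ± 0.17, adjusted p = 0.864), and its sign turned under 2 of the 3 other scalings, quantile and median-of-ratios. Ifit1bl1 and Ifit2 were the 2 genes that were lower without overlap in both cell types. Ifit1bl1 had 71.2 and 65.1 TPM in Cd47ΔT and 90.8 and 84.6 TPM in Cd47f/f T cells (log2 change -0.36 ± 0.12, adjusted p = 0.149), and Ifit2 had 22.1 and 24.3 TPM in Cd47ΔT and 25.3 and 34.2 TPM in Cd47f/f T cells (log2 change -0.33 ± 0.19, adjusted p = 0.411). Neither T cell value was called.

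The OAS family makes oligoadenylates from ATP when it meets viral RNA, which activate the nuclease RNase L, while not all of the OAS-like proteins keep that activity. Oas1a had the largest increase of the 37 genes in T cells, with 36.3 and 28.9 TPM in Cd47ΔT T cells, against 10.4 and 9.53 TPM in Cd47f/f T cells (log2 change 1.61 ± 0.19, adjusted p = 0.00784). Both Cd47ΔT libraries lay above 28 TPM and both controls below 11 TPM. Its call ended only with no filter on low values, and its adjusted p ran over 9.46e-13 to 0.0693 in the alternatives. In cDC2s it was lower without overlap, at 28.6, 35 and 32.1 TPM in Cd47ΔT and 42.9, 44 and 42 TPM in Cd47f/f cDC2s (log2 change -0.42 ± 0.12, adjusted p = 0.187). Oas1g, which is 97.5% identical to it over 1860 aligned bases, stood at 0.51 and 1 TPM in Cd47ΔT and 0 and 0.1 TPM in Cd47f/f T cells, and the split of reads between them is uncertain. Oasl2 fell in cDC2s, with 20.3, 30.3 and 25.3 TPM in Cd47ΔT cDC2s, against 76.8, 70.6 and 55.2 TPM in Cd47f/f cDC2s (log2 change -1.39 ± 0.18, adjusted p = 0.0262). The lowest control was above the highest Cd47ΔT library by more than 20 TPM. In T cells it stood at 21.4 and 18.3 TPM in Cd47ΔT and 10.7 and 14.3 TPM in Cd47f/f T cells (log2 change 0.63 ± 0.21, adjusted p = 0.13). The other members, Oas2, Oas3 and Oasl1, were higher without overlap in T cells and lower without overlap in cDC2s, with no call in either. Oas3 had 26.2 and 28.4 TPM in Cd47ΔT and 11.9 and 18.9 TPM in Cd47f/f T cells (0.82 ± 0.24 on the log2 scale) and 5.35, 6.73 and 3.21 TPM in Cd47ΔT and 8.91, 11.3 and 8.32 TPM in Cd47f/f cDC2s (-0.82 ± 0.27). Oas2 had 9.69 and 7.25 TPM in Cd47ΔT and 4.16 and 4.77 TPM in Cd47f/f T cells (0.78 ± 0.23) and 14.8, 17.9 and 11.7 TPM in Cd47ΔT and 24.6, 23.9 and 18.7 TPM in Cd47f/f cDC2s (-0.58 ± 0.20). Oasl1, an inhibitor of IRF7 translation in mouse, had 9.08 and 8.4 TPM in Cd47ΔT and 6.16 and 4.73 TPM in Cd47f/f T cells (0.60 ± 0.21) and 2.86, 5.37 and 3.09 TPM in Cd47ΔT and 7.36, 9.17 and 6.83 TPM in Cd47f/f cDC2s (-0.91 ± 0.27).

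The MX genes encode dynamin-like GTPases that trap viral nucleocapsids. Mx1 rose in T cells, with 20.4 and 16.9 TPM in Cd47ΔT T cells, against 6.2 and 5.9 TPM in Cd47f/f T cells (log2 change 1.47 ± 0.19, adjusted p = 0.0111). Its call ended only with no filter, with adjusted p of 7.56e-09 to 0.0743 over the alternatives. In cDC2s it stood at 16.5, 18.8 and 9.24 TPM in Cd47ΔT and 21.4, 28.6 and 21.6 TPM in Cd47f/f cDC2s (log2 change -0.69 ± 0.26, adjusted p = 0.31), lower without overlap. Mx2 had 4.49 and 4.31 TPM in Cd47ΔT and 2.05 and 2.63 TPM in Cd47f/f T cells (log2 change 0.70 ± 0.22, adjusted p = 0.12) and 1.66, 4.08 and 6.63 TPM in Cd47ΔT and 7.02, 10.5 and 18.8 TPM in Cd47f/f cDC2s (log2 change -1.38 ± 0.46, adjusted p = 0.249). Both cell types kept the genotypes apart, and the cDC2 libraries of each genotype spread widely.

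ISG15 is a ubiquitin-like protein that is attached to newly made proteins, HERC6 is its ligase in mouse, and USP18 removes it and also blocks IFNAR2. Isg15 rose in T cells, with 71.5 and 56 TPM in Cd47ΔT T cells, against 37.2 and 36.9 TPM in Cd47f/f T cells (log2 change 0.76 ± 0.16, adjusted p = 0.0368), while its cDC2 values overlapped, at 41.1, 42 and 35.6 TPM in Cd47ΔT and 36.6, 69.2 and 52 TPM in Cd47f/f cDC2s (log2 change -0.36 ± 0.22, adjusted p = 0.532). Usp18 also rose in T cells, with 32 and 30.4 TPM in Cd47ΔT T cells, against 20.3 and 17.3 TPM in Cd47f/f T cells (log2 change 0.71 ± 0.16, adjusted p = 0.0474). It overlapped in cDC2s, at 54.4, 60.7 and 61.1 TPM in Cd47ΔT and 53.5, 60.6 and 62 TPM in Cd47f/f cDC2s (log2 change 0.0022 ± 0.11, adjusted p = 0.995), and the sign of that value turned when single libraries were left out. Herc6 was not called, at 15 and 14.6 TPM in Cd47ΔT and 11.7 and 13.7 TPM in Cd47f/f T cells (0.21 ± 0.18) and 13.3, 18.1 and 13.7 TPM in Cd47ΔT and 18.9, 18.8 and 17.9 TPM in Cd47f/f cDC2s (-0.30 ± 0.17).

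Cytosolic sensors of viral RNA were lower without overlap in cDC2s. Dhx58 encodes LGP2, which tunes the other sensors. It was the called sensor in T cells, with 20.7 and 23.1 TPM in Cd47ΔT T cells, against 12.4 and 13.3 TPM in Cd47f/f T cells (log2 change 0.73 ± 0.17, adjusted p = 0.0496), and stood at 24.9, 34.5 and 27.4 TPM in Cd47ΔT and 50.2, 45.5 and 52.3 TPM in Cd47f/f cDC2s (log2 change -0.76 ± 0.15, adjusted p = 0.0812). Ifih1, the gene of MDA5, had 31.9, 36.9 and 27.1 TPM in Cd47ΔT and 43, 44.4 and 49.8 TPM in Cd47f/f cDC2s (log2 change -0.51 ± 0.14, adjusted p = 0.181) and overlapped in T cells at 10.6 and 9.53 TPM in Cd47ΔT and 6.91 and 9.78 TPM in Cd47f/f T cells (0.26 ± 0.23). Ddx58, the gene of RIG-I, had 37.6, 38.2 and 38.3 TPM in Cd47ΔT and 70.05, 52.4 and 51.4 TPM in Cd47f/f cDC2s (log2 change -0.58 ± 0.14, adjusted p = 0.132) and 56.9 and 57.6 TPM in Cd47ΔT and 48.3 and 72.2 TPM in Cd47f/f T cells (-0.0449 ± 0.20), where Cd47f/f library 2 held the highest value. Eif2ak2 encodes PKR, the kinase that halts translation on viral RNA. It had 20.2 and 21.9 TPM in Cd47ΔT and 8.97 and 14.5 TPM in Cd47f/f T cells (log2 change 0.83 ± 0.25, adjusted p = 0.102) and 16.8, 27.7 and 19.5 TPM in Cd47ΔT and 29.3, 31.5 and 27.7 TPM in Cd47f/f cDC2s (log2 change -0.48 ± 0.19, adjusted p = 0.331), without overlap in either cell type. In cDC2s the highest Cd47ΔT and the lowest Cd47f/f library both round to 27.7 TPM, so the genotypes were barely apart.

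Effectors that act on nucleotides and RNA included Isg20, an exonuclease gene that rose in T cells with 37.4 and 38.8 TPM in Cd47ΔT T cells, against 19.7 and 20.7 TPM in Cd47f/f T cells (log2 change 0.88 ± 0.14, adjusted p = 0.0182). Its adjusted p was over 0.05 with no filter and without either Cd47ΔT library (5.6e-05 to 0.181 over the alternatives). In cDC2s Isg20 stood at 30.6, 34.3 and 21.9 TPM in Cd47ΔT and 59.9, 51.1 and 46.9 TPM in Cd47f/f cDC2s (log2 change -0.86 ± 0.18, adjusted p = 0.103), lower without overlap. Slfn5, a Schlafen family gene, fell in cDC2s, with 45.3, 55.3 and 44.3 TPM in Cd47ΔT cDC2s, against 90.4, 90.3 and 82.6 TPM in Cd47f/f cDC2s (log2 change -0.85 ± 0.12, adjusted p = 0.0293). Its T cell values overlapped at 30.5 and 31.7 TPM in Cd47ΔT and 26.2 and 43.1 TPM in Cd47f/f T cells (-0.11 ± 0.24). Rsad2 encodes viperin, which makes a chain-terminating nucleotide, and Cmpk2, its neighbour on chromosome 12, encodes the kinase that supplies the substrate. Rsad2 had 5.56 and 6.13 TPM in Cd47ΔT and 2.71 and 2.7 TPM in Cd47f/f T cells (log2 change 0.88 ± 0.21, adjusted p = 0.0513) and 4.03, 5.33 and 4.05 TPM in Cd47ΔT and 6.88, 9.34 and 10.7 TPM in Cd47f/f cDC2s (log2 change -0.85 ± 0.23, adjusted p = 0.168). Cmpk2 had 11.4 and 11.6 TPM in Cd47ΔT and 6.89 and 8.55 TPM in Cd47f/f T cells (0.52 ± 0.20) and 2.88, 2.82 and 3.37 TPM in Cd47ΔT and 4.6, 6.35 and 5.84 TPM in Cd47f/f cDC2s (-0.71 ± 0.23). These neighbours were higher without overlap in T cells and lower without overlap in cDC2s. Samd9l, a restriction factor for poxviruses, was lower without overlap in cDC2s, at 32.9, 39.9 and 37.8 TPM in Cd47ΔT and 58.3, 54 and 49.2 TPM in Cd47f/f cDC2s (log2 change -0.54 ± 0.13, adjusted p = 0.123), and overlapped in T cells (0.0134 ± 0.19, with its sign turning under the other scalings).

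Of the 4 genes of membrane proteins and trafficking, 2 were called higher in T cells (8.50% of all genes). In cDC2s 0 were called (0.249% of all genes higher and 0.381% lower). Bst2 encodes tetherin, which holds budding virions at the cell surface, and it rose in T cells with 148 and 151 TPM in Cd47ΔT T cells, against 109.7 and 97.8 TPM in Cd47f/f T cells (log2 change 0.52 ± 0.12, adjusted p = 0.043). In cDC2s the levels were low and overlapped, at 22.1, 10.8 and 10.6 TPM in Cd47ΔT and 9.61, 15.9 and 17.1 TPM in Cd47f/f cDC2s (log2 change -0.0085 ± 0.33, adjusted p = 0.994). Ifi27l2a, a gene of a small hydrophobic protein, had the highest level of the set in Cd47ΔT T cells. It rose there, with 894 and 765 TPM in Cd47ΔT T cells, against 509 and 372 TPM in Cd47f/f T cells (log2 change 0.92 ± 0.17, adjusted p = 0.0249), and overlapped in cDC2s at 151, 131 and 132 TPM in Cd47ΔT and 155, 143 and 173 TPM in Cd47f/f cDC2s (log2 change -0.19 ± 0.11, adjusted p = 0.514). Rtp4, a receptor-transporting protein gene, had 57.2 and 52.8 TPM in Cd47ΔT and 35.2 and 46.9 TPM in Cd47f/f T cells (log2 change 0.43 ± 0.17, adjusted p = 0.228) and 31.8, 30.4 and 35 TPM in Cd47ΔT and 52, 59.4 and 49.2 TPM in Cd47f/f cDC2s (log2 change -0.70 ± 0.12, adjusted p = 0.0613), without overlap in either. Ifi44 was the lowest gene of the set in both control groups, at 2.86 and 2.72 TPM in Cd47ΔT and 1.49 and 1.4 TPM in Cd47f/f T cells (0.63 ± 0.22) and 2.09, 1.17 and 1.3 TPM in Cd47ΔT and 3.01, 1.21 and 1.35 TPM in Cd47f/f cDC2s (-0.14 ± 0.34).

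Of the 6 ubiquitin ligase, ADP-ribosyl transferase and nuclear body genes, 0 were called in either cell type. Over all genes, 8.50% were called higher and 0.875% lower in T cells, and 0.249% and 0.381% in cDC2s. A count of 0 of 6 is thus near the share of all genes and does not set this group apart. Parp9 and Dtx3l, which overlap on opposite strands and encode partners in 1 complex, and Parp14 were all lower without overlap in cDC2s. Parp9 had 42.3, 47 and 47.5 TPM in Cd47ΔT and 51.7, 58.3 and 57.4 TPM in Cd47f/f cDC2s (-0.28 ± 0.11), Dtx3l 60.4, 74.1 and 60.6 TPM in Cd47ΔT and 79.3, 83 and 74.5 TPM in Cd47f/f cDC2s (-0.28 ± 0.12) and Parp14 43.6, 51.3 and 53.9 TPM in Cd47ΔT and 65.1, 69.6 and 62.9 TPM in Cd47f/f cDC2s (-0.41 ± 0.12). Their T cell values overlapped, with log2 changes of 0.17 ± 0.18, -0.0388 ± 0.22 and 0.16 ± 0.28, and in each of the 3 genes Cd47f/f library 2 was highest and Cd47f/f library 1 lowest. Sp100, a nuclear body scaffold gene, was among the most abundant of the set. It had 117, 153 and 129.9 TPM in Cd47ΔT and 199, 180.3 and 181 TPM in Cd47f/f cDC2s (log2 change -0.49 ± 0.12, adjusted p = 0.127), lower without overlap, and in T cells 514 and 518 TPM in Cd47ΔT and 436 and 596 TPM in Cd47f/f T cells (log2 change 0.0178 ± 0.16, adjusted p = 0.974), with its sign turning under the other scalings. Trim30a, a TRIM ligase gene of mice, was higher without overlap in T cells at 81.5 and 81 TPM in Cd47ΔT and 50.4 and 74.8 TPM in Cd47f/f T cells (0.40 ± 0.20) and lower without overlap in cDC2s at 37.3, 37.6 and 35.5 TPM in Cd47ΔT and 52, 50.7 and 46.9 TPM in Cd47f/f cDC2s (-0.43 ± 0.11). Xaf1, an antagonist of the caspase inhibitor XIAP, had 61 and 54.5 TPM in Cd47ΔT and 36.3 and 45.5 TPM in Cd47f/f T cells (0.49 ± 0.16) and overlapped in cDC2s at 31.7, 31.2 and 25.4 TPM in Cd47ΔT and 23.1, 27.6 and 31.5 TPM in Cd47f/f cDC2s (0.10 ± 0.16).

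**Figure D3:**
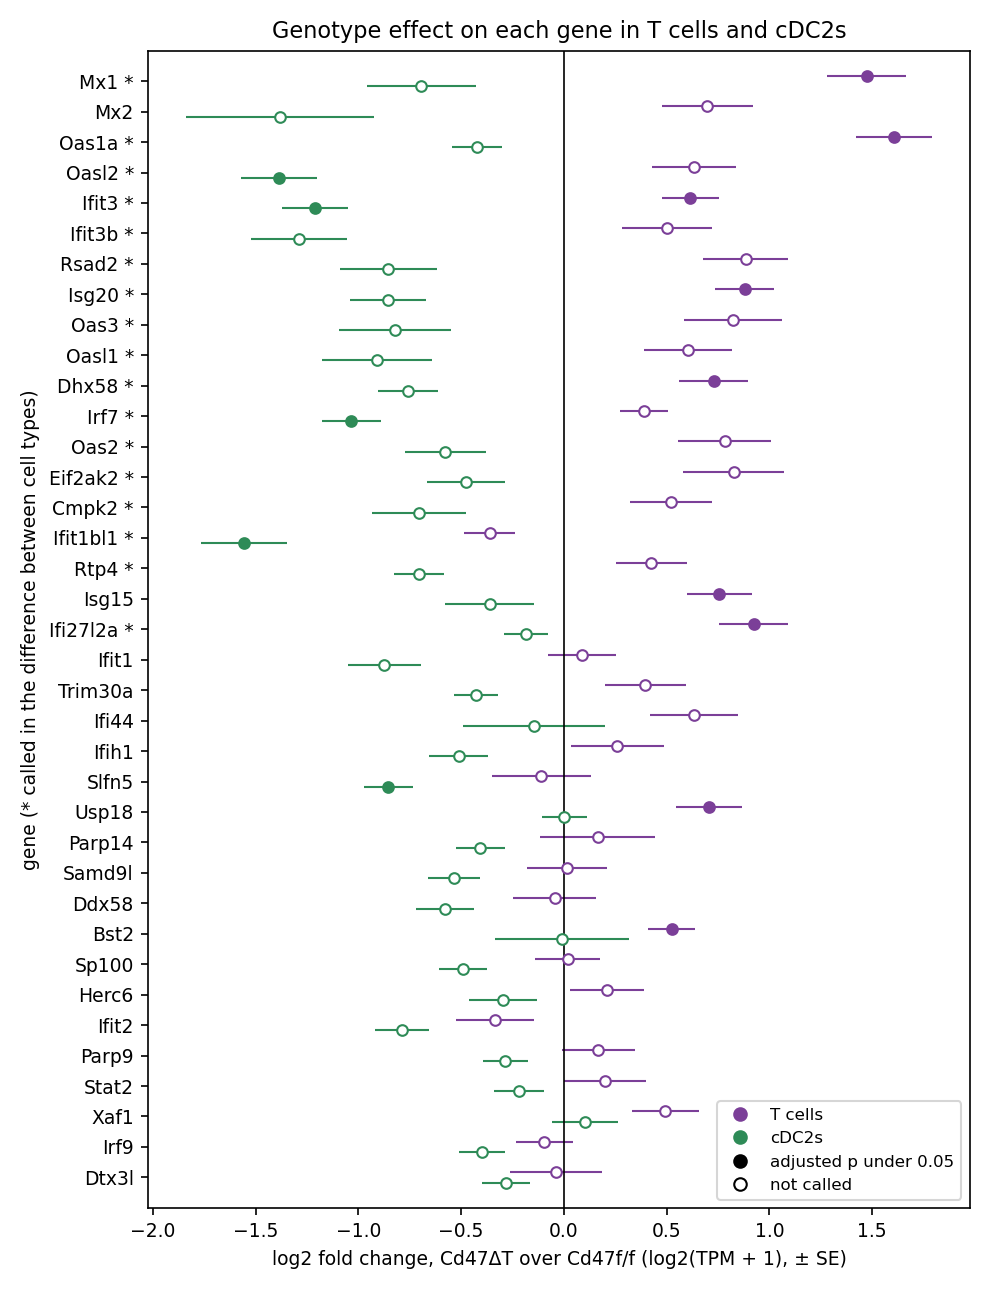
Points are log2 fold changes (Cd47ΔT over Cd47f/f, log2(TPM + 1) scale, bars ± SE) of the 37 genes in T cells (purple) and cDC2s (green), filled where called, with genes ordered by the difference between the cell types and starred where that difference was called. Purple points lie to the right of green points in all 37 genes, with the largest gaps for Mx1, Mx2, Oas1a and Oasl2.

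Calls within 1 cell type were sensitive to the libraries used. In cDC2s leaving out any 1 of the 6 libraries left 0 of 37 called by limma, while 22 to 29 were below an unadjusted p of 0.05 and the median fold change stayed between -0.66 and -0.48. Without Cd47f/f library 3, the library that stood apart, 26 were below that p. In T cells 3 of 37 were called without Cd47ΔT library 1, 3 without Cd47ΔT library 2 and 16 without Cd47f/f library 2. With no filter on low values 0 were called in either cell type by limma, with 19 in T cells and 29 in cDC2s below an unadjusted p of 0.05. The calls of Ifit3, Usp18 and Dhx58 in T cells held in 3, 4 and 4 of 14 alternatives, those of Isg15 and Bst2 in 5 each and that of Ifi27l2a in 10.

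The difference between the genotype effects was then tested directly, as an interaction of genotype and cell type in 1 limma fit of all 10 libraries. It was above 0 for all 37 genes, where 70.7% of the 10650 genes tested were. It was called for 17 of 37 (45.9%), against 5.40% of all genes called in that direction and 5.70% in either, and 0 were called the other way (0.300% of all genes), with 26 above 0 and 0 below at an unadjusted p under 0.05. The median difference was 1.11 on the log2 scale, beside 0.19 over all genes tested, and 0.82 beside -0.0432 under quantile scaling. Leaving out Cd47f/f T cell library 1 turned the sign of Dtx3l, and no other sign turned in any of the 18 alternatives. In 16 of the 17 the fold change was above 0 in T cells and below 0 in cDC2s (4.0% of all genes were called with these signs). The other was Ifit1bl1, which was lower in both cell types and more so in cDC2s. Ifit3 was the 1 gene of the set called higher in T cells and called lower in cDC2s, where 13 of the 10650 genes (0.122%) were. In 17 of 37 genes the genotypes did not overlap in opposite directions in the 2 cell types, against 4.50% of all genes. In the same interaction test, 7 of 8 macrophage, 6 of 7 cDC2, 5 of 7 monocyte and 3 of 4 cDC1 markers were called above 0. So were 2 of 6 plasmacytoid dendritic cell markers, with 1 called below 0, and 1 of 2 B cell and 1 of 2 plasma cell markers. Of 4 erythroid markers 0 were called. The cDC1 markers tested here, Clec9a, Cadm1, Batf3 and Wdfy4, passed the T cell filter only through Cd47ΔT, so their count is no test. The part of other cell types in the difference was not tested.

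Called differences were largest for Mx1 (log2 difference 2.17 ± 0.38, adjusted p = 0.00512), Oas1a (log2 difference 2.03 ± 0.22, adjusted p = 0.000327), Oasl2 (log2 difference 2.02 ± 0.30, adjusted p = 0.00217) and Ifit3 (log2 difference 1.82 ± 0.24, adjusted p = 0.00113). Next came Ifit3b (log2 difference 1.79 ± 0.35, adjusted p = 0.0109), Rsad2 (log2 difference 1.74 ± 0.34, adjusted p = 0.0105), Isg20 (log2 difference 1.74 ± 0.27, adjusted p = 0.00293) and Oas3 (log2 difference 1.65 ± 0.40, adjusted p = 0.0319). Irf7, Dhx58, Irf9 and Stat2 differed by 1.42 ± 0.21, 1.49 ± 0.24, 0.30 ± 0.19 and 0.42 ± 0.24, with adjusted p of 0.00252, 0.00341, 0.544 and 0.463. By role, 5 of 5 OAS genes, 3 of 5 IFIT genes, 3 of 5 nucleotide and RNA effectors and 2 of 4 RNA sensors and PKR were called. So were 2 of 4 membrane and trafficking genes, 1 of 2 MX genes and 1 of 3 in the group of ISGF3 and IRF7. In the ISG15 pathway 0 of 3 were called, and 0 of 6 among the ubiquitin, PARP and nuclear body genes. Of all genes tested, 5.70% were called in either direction. The differences of Irf7, Ifit3, Oas1a, Oasl2, Mx1, Dhx58 and Isg20 were called under all 18 alternatives, none of which is a replicate block. All 18 also use 1 residual spread per gene for both cell types, whose libraries came from different kits. Over the 18 alternatives, adjusted p in limma was 0.000231 to 0.00284 for Oas1a, 0.000789 to 0.0105 for Ifit3 and 0.00424 to 0.0334 for Mx1. Calls of Ifit1bl1 and Oas3 held in 8 alternatives, those of Oas2 and Oasl1 in 6 and those of Eif2ak2 and Cmpk2 in 5. With quantile scaling 8 differences were called, with median-of-ratios scaling 10, and with 1 library left out 9 to 16. The order of the genes differed between the cell types. Across the 37 genes, which are not independent and share their libraries, the 2 fold changes had a Pearson r of 0.0600 and a Spearman rho of 0.0240. Oas1a and Mx1 led in T cells, and Ifit1bl1, Oasl2, Mx2 and the Ifit3 copies in cDC2s.

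**Figure D4:**
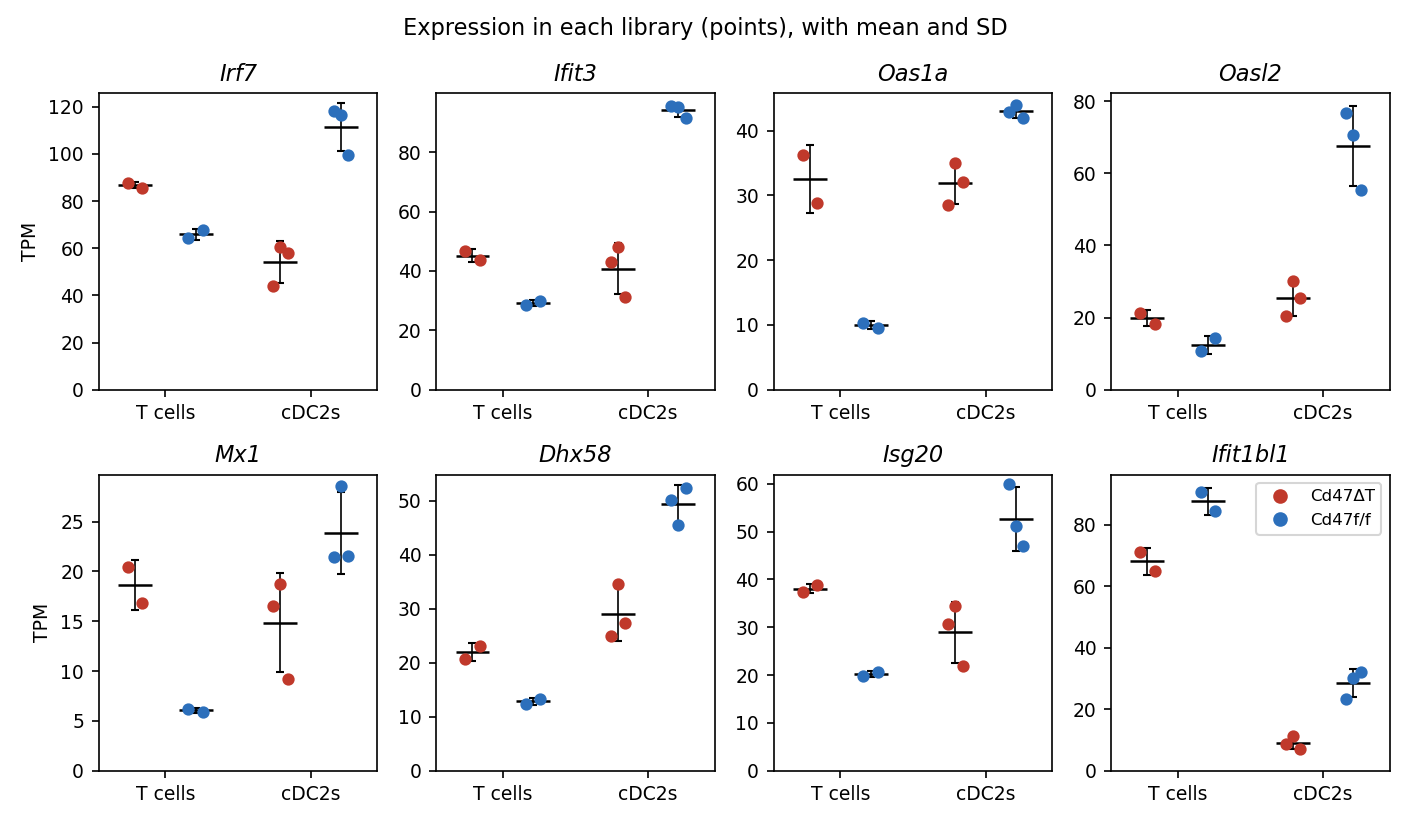
TPM of 8 genes in each library (points), with the mean (line) and SD (bar) of each group, Cd47ΔT in red left of Cd47f/f in blue. The first 7 genes are those whose difference was called under all 18 alternatives, with red above blue in T cells and below blue in cDC2s. Ifit1bl1 is lower in Cd47ΔT in both cell types.

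T cells and cDC2s were prepared with different kits, a stranded mRNA kit and a SMART-seq stranded kit, so cell type and kit cannot be told apart in levels and no test was made. In control T cells Sp100 (516 TPM) and Ifi27l2a (441 TPM) led the set by mean TPM, followed by Bst2 (104 TPM), Samd9l (88.3 TPM) and Ifit1bl1 (87.7 TPM). The last 2 did not differ beyond their spread. In control cDC2s Sp100 (187 TPM) and Ifi27l2a (157 TPM) led as well, followed by Irf7 (111 TPM), Irf9 (109 TPM) and Ifit3 (94.2 TPM), of which Irf7 and Irf9 did not differ beyond their spread. At the other end stood Ifi44 (1.45 TPM in T cells and 1.86 TPM in cDC2s).

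The cytokines and the receptor were examined next. Of 18 type I interferon genes, 16 were at 0 TPM in every library, Ifnb1 among them, and the highest value of the other 2 was 0.510 TPM. As means ± SD over 2 libraries a genotype in T cells and 3 in cDC2s, Ifnar1 had 66 ± 5.87 TPM in Cd47ΔT T cells and 62.8 ± 13.6 TPM in Cd47f/f T cells (log2 change 0.0852 ± 0.18, adjusted p = 0.883) and 50.1 ± 10.2 TPM in Cd47ΔT cDC2s and 56.4 ± 4.99 TPM in Cd47f/f cDC2s (log2 change -0.18 ± 0.16, adjusted p = 0.683). Ifnar2 had 78.6 and 80.2 TPM in Cd47ΔT and 51.1 and 59.7 TPM in Cd47f/f T cells (log2 change 0.52 ± 0.13, adjusted p = 0.0688) and 101, 127 and 124 TPM in Cd47ΔT and 146, 122 and 158 TPM in Cd47f/f cDC2s (log2 change -0.27 ± 0.13, adjusted p = 0.441), higher without overlap in T cells and overlapping in cDC2s. The receptor kinase genes Jak1 and Tyk2 were not called either, with log2 fold changes of -0.16 ± 0.17 and 0.33 ± 0.16 in T cells and -0.27 ± 0.12 and -0.13 ± 0.15 in cDC2s. Of 13 genes of receptor signalling, 2 were called higher (15.4%, against 8.50% of all genes) and 0 lower in T cells, and 0 in cDC2s, where limma gave 1 higher and 1 lower at an unadjusted p under 0.05. The called genes were Irf5 (log2 change 2.09 ± 0.22, adjusted p = 0.00645) and Irf8 (log2 change 1.74 ± 0.27, adjusted p = 0.0153), factors of myeloid and B cells. They stood at 14.7 and 18.9 TPM in Cd47ΔT and 2.93 and 3.42 TPM in Cd47f/f T cells and at 24.7 and 39.99 TPM in Cd47ΔT and 7.63 and 9.88 TPM in Cd47f/f T cells, and like the marker lists they were highest in Cd47ΔT library 2. The part of other cell types in these values was not tested.

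Genes of nucleic acid sensing upstream of interferon were called higher in 3 of 17 in T cells (17.6%, against 8.50% of all genes) and in 0 of 18 in cDC2s in either direction (0.249% of all genes higher and 0.381% lower), where limma gave 3 lower at an unadjusted p under 0.05. The T cell genes were Unc93b1, the transporter of nucleic acid-sensing Toll-like receptors (log2 change 1.97 ± 0.25, adjusted p = 0.0105), Tlr8 (log2 change 1.30 ± 0.27, adjusted p = 0.0347) and the DNA exonuclease gene Trex1 (log2 change 0.74 ± 0.17, adjusted p = 0.0494). Unc93b1 stood at 29.8 and 46.8 TPM in Cd47ΔT and 7.78 and 9.86 TPM in Cd47f/f T cells and at 459, 468 and 424 TPM in Cd47ΔT and 593, 544 and 590.0 TPM in Cd47f/f cDC2s. Its difference between cell types was called (log2 difference 2.33 ± 0.24, adjusted p = 0.000224), as were those of Trex1 (log2 difference 1.04 ± 0.20, adjusted p = 0.00867), Tlr9 (log2 difference 1.31 ± 0.29, adjusted p = 0.0211) and Zbp1 (log2 difference 1.28 ± 0.31, adjusted p = 0.0309). Zbp1 is an interferon-induced sensor that can start necroptosis. It had 145 and 136 TPM in Cd47ΔT T cells, against 109 and 113 TPM in Cd47f/f T cells (log2 change 0.34 ± 0.11, adjusted p = 0.129), and 30.8, 52.9 and 30.3 TPM in Cd47ΔT and 73.8, 80.5 and 60.8 TPM in Cd47f/f cDC2s (log2 change -0.94 ± 0.22, adjusted p = 0.128). The genotypes were apart in both, with opposite directions.

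Of 55 other interferon-stimulated genes listed beside the 37, 8 of 52 tested were called higher and 0 lower in T cells (15.4%, against 8.50% of all genes, with 1 lower at an unadjusted p under 0.05 in limma), and 1 of 52 lower and 0 higher in cDC2s (1.92%, against 0.381%). Their median log2 fold change was 0.20 in T cells and -0.24 in cDC2s, smaller than that of the 37 in both. Both lists were chosen with earlier results of these data known, so this contrast is descriptive only. The T cell genes with the smallest p were the chemokine gene Cxcl10 (log2 change 2.29 ± 0.21, adjusted p = 0.00455), Ms4a4c (log2 change 0.80 ± 0.0998, adjusted p = 0.00933), Ube2l6, which encodes the conjugating enzyme of ISG15 (log2 change 1.56 ± 0.21, adjusted p = 0.0118), and Mlkl, the executor of necroptosis (log2 change 1.33 ± 0.22, adjusted p = 0.0185). Cxcl10 stood at 9.82 and 10.4 TPM in Cd47ΔT and 1.18 and 1.36 TPM in Cd47f/f T cells and overlapped in cDC2s (0.0888 ± 0.30). Ube2l6 stood at 10.6 and 8.75 TPM in Cd47ΔT and 2.74 and 2.49 TPM in Cd47f/f T cells and at 15.1, 13.8 and 11.7 TPM in Cd47ΔT and 17.1, 18.4 and 24.5 TPM in Cd47f/f cDC2s. The cDC2 gene was Lgals9, the galectin 9 gene, with 20.9, 20.8 and 19.3 TPM in Cd47ΔT cDC2s, against 42, 37.1 and 44 TPM in Cd47f/f cDC2s (log2 change -0.98 ± 0.13, adjusted p = 0.025). The difference between cell types was called for 10 of 51, all of them above 0 (19.6%, against 5.40%). The smallest p belonged to Ube2l6 (log2 difference 2.08 ± 0.30, adjusted p = 0.00208), Tor3a (log2 difference 1.39 ± 0.22, adjusted p = 0.0031), Lgals9 (log2 difference 1.10 ± 0.18, adjusted p = 0.00356) and Epsti1 (log2 difference 0.97 ± 0.16, adjusted p = 0.00398).

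Genes of interferon gamma, the type II interferon, and its targets were called in 1 of 16 higher (6.25%, below the 8.50% of all genes) and 1 of 16 lower (6.25%, against 0.875%) in T cells and in 0 of 15 in cDC2s, where limma gave 1 higher and 2 lower at an unadjusted p under 0.05. The T cell genes were the guanylate-binding protein gene Gbp3 (log2 change 0.90 ± 0.20, adjusted p = 0.0408) and the receptor chain gene Ifngr2 (log2 change -0.81 ± 0.18, adjusted p = 0.0424). The difference between cell types was called above 0 for 1 of 14 (7.14%), near the 5.40% of all genes called above 0 and 5.70% in either direction. The called gene was Ciita, the regulator of MHC class II genes (log2 difference 1.33 ± 0.30, adjusted p = 0.0223). It stood at 1.19 and 2.98 TPM in Cd47ΔT and 0.19 and 0.35 TPM in Cd47f/f T cells. Ciita thus passed the T cell filter only through Cd47ΔT, which fixed its direction in T cells in advance. The median log2 fold changes of this list were 0.20 in T cells and -0.23 in cDC2s, against 0.50 and -0.58 for the 37 genes. This contrast, too, is between lists chosen with earlier results known and is descriptive only.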

How the data were processed

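RNA-seq of spleen T cells (4 libraries) and cDC2s (6 libraries) was deposited as 1 table of TPM per gene, in which the authors scaled each library to a total of 1000000. The submitters' processing notes name STAR, RSEM, DESeq2 and GRCm38, with no versions or roles. Neither the notes nor the labels give the strand setting, the annotation release or the read depth, so the precision of single values is unknown beyond the spread between libraries. Per the labels, T cell RNA went through an RNeasy mini and TruSeq stranded mRNA kit and cDC2 RNA through an RNeasy micro and SMART-seq stranded kit. Gene symbols came from GENCODE M21 for 45143 of 45706 identifiers (98.8%), and 563 were not matched. The deposited TPM were tested as log2(TPM + 1) with limma 3.58.1 in R 4.3.3, with a mean-variance trend and Benjamini-Hochberg adjustment over all genes at 0.05. The filter was 1 TPM in at least 2 T cell or 3 cDC2 libraries. Each cell type was fitted alone with genotype as the term. The interaction, T cell effect minus cDC2 effect, was fitted over all 10 libraries for genes that passed both filters. Tables were made in Python 3.11.15 with pandas 2.3.3 and numpy 2.4.6, plots with matplotlib 3.10.9. The code recovered known changes in simulated data. The members and gene lists were chosen with earlier results of these data known. Every member was to be accounted for, with called members (up to 12 per comparison), Irf7, Irf9, Stat2 and the highest member of each role group in full, and of each other list up to 4 called genes with the smallest p per comparison. Ifnar1, Ifnar2, Jak1, Tyk2, Ifnb1 and Cd47 were given whatever their value, and 1 further gene of the rule is not reported here. The fits were repeated with a pseudocount of 0.1 or of 5, no filter, a filter of 5 TPM, quantile, median-of-ratios and protein-coding scaling, no variance trend and each library left out, and the fits within a cell type also with a replicate block and as 1 fit of all libraries.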

Additional observations from a re-analysis of the deposited data

Results flagged for a closer look

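The genotype effect differed between T cells and cDC2s in the interaction test for the genes that follow, each given as the T cell effect minus the cDC2 effect on the log2(TPM + 1) scale. Among the 37 interferon-stimulated genes the differences were 2.17 for Mx1, 2.03 for Oas1a, 2.02 for Oasl2, 1.82 for Ifit3, 1.79 for Ifit3b, 1.74 for Rsad2 and 1.74 for Isg20. They were 1.65 for Oas3, 1.51 for Oasl1, 1.49 for Dhx58, 1.42 for Irf7, 1.36 for Oas2 and 1.3 for Eif2ak2. The smallest called values were 1.23 for Cmpk2, 1.2 for Ifit1bl1, 1.13 for Rtp4 and 1.11 for Ifi27l2a.

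Among the other genes of the pathway named above, the difference was 2.33 for Unc93b1, 2.2 for Cxcl10, 2.14 for Irf5, 2.08 for Ube2l6 and 1.78 for Irf8. It was 1.39 for Tor3a, 1.33 for Ciita, 1.31 for Tlr9, 1.28 for Zbp1, 1.1 for Lgals9, 1.04 for Trex1, 0.97 for Epsti1 and 0.88 for Ms4a4c. The deleted gene Cd47 had a difference of -1.94. Ciita passed the T cell filter only through Cd47ΔT, so its value is no test of a rise in T cells. Unc93b1, Irf5, Irf8 and Ciita are expressed in dendritic cells and B cells, whose markers were also higher in Cd47ΔT T cell libraries. Their part in these values was not tested.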

How the results depend on the processing

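Counts of the 37 genes called in T cells, 9 as reported, were 5 with a pseudocount of 0.1, 0 with no filter, 3 under quantile, 4 under median-of-ratios and 5 under protein-coding scaling, 4 without the variance trend and 16 with the replicate block, and they ran between 3 and 16 with 1 library left out. In cDC2s, 5 as reported, counts were 0 with no filter, 0 without the trend, 0 with the block and 11 in 1 fit of all libraries, and 0 (0 to 0) without any 1 library. Where limma called 0, an unadjusted p under 0.05 was reached by 19 genes in T cells with no filter, and in cDC2s by 29 with no filter, 26 without the trend, 29 with the block and 22 to 29 with a library left out. For the difference between cell types, 17 as reported, counts were 8 under quantile and 10 under median-of-ratios scaling, and 9 to 16 with 1 library left out, with 9 without either Cd47ΔT T cell library and 11 without Cd47f/f T cell library 1, Cd47ΔT cDC2 library 1 or Cd47f/f cDC2 library 2. Over all genes, 1167 were called in T cells, against 15 with no filter, 758 at 5 TPM, 2296 with the block and 725 to 1568 with 1 library left out. In cDC2s 76 were called, against 6 with no filter, 12 without the trend, 171 in 1 fit, 4 with the block and 0 to 14 with 1 library left out. For the difference 607 were called, against 949 with no filter, 395 at 5 TPM, 380 under quantile scaling and 302 to 607 with 1 library left out. The split of higher and lower calls moved with scaling. It was 1058 and 109 in T cells, against 655 and 336 under quantile and 946 and 264 under median-of-ratios scaling. In cDC2s it was 30 and 46, against 34 and 36, 40 and 35, and 35 and 31 under protein-coding scaling. For the difference it was 575 and 32, against 299 and 81 and 417 and 77. The difference was not fitted with a block. No call reversed. The sign of the fold change held in every alternative run for 27 of 37 genes in T cells, 33 in cDC2s and 36 for the difference. Whether equal library numbers mark paired samples is unknown. Same-numbered libraries had deviations correlated at 0.190 in T cells and -0.044 to 0.119 in cDC2s. Differently numbered libraries had -0.19 in T cells and -0.137 to 0.119 in cDC2s. With 2 libraries a genotype the T cell values must mirror each other, so they cannot decide on pairing. In T cells the block leaves 1 residual degree of freedom, and a group left with 1 library borrows the spread of the other group. Depth is unknown and 2 libraries a group in T cells limit every T cell p. The cause of these changes was not tested.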
